A study of Mus musculus with 16 samples.

Results

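AMPA receptors are the fast glutamate receptors of the brain, and the 10 genes described here encode their pore subunits and the membrane proteins that travel with them. The 10 were chosen by gene symbol from a table of 48709 genes, and each symbol matched 1 gene. RNA had been sequenced from the cerebral cortex of C57BL/6 mice, with no genetic change or drug named in the labels. Synaptosomes (SYN), synaptic endings that pinch off and reseal when the tissue is ground, were prepared from mice aged 3 weeks, or 5 or 19 months, and total homogenate (TH), the cortex before fractionation, was kept at 5 months. Each of the 4 groups held 4 libraries that the labels call biological replicates. The deposited values are counts of reads per gene, and splicing tables compare the 3 ages of SYN.

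An AMPA receptor is a tetramer of the subunits GluA1 to GluA4, encoded by Gria1 to Gria4. Receptors that contain edited GluA2 pass little calcium, and receptors without it pass more, so the subunit mix sets the current. The pores are joined by auxiliary subunits, among them the transmembrane AMPA receptor regulatory proteins (TARPs, here Cacng2, Cacng3 and Cacng8), the cornichons (Cnih2 and Cnih3) and the Shisa family (here Shisa9, also called CKAMP44), which slow or speed desensitization and help carry receptors to the synapse. Some of their mRNAs are known to be present in dendrites, where they can be translated near synapses.

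Each pore subunit gene also carries a pair of mutually exclusive exons of 115 bases, flop and flip, that code for a stretch of the ligand-binding region and change how fast the receptor desensitizes. They are shown because the deposited splicing tables hold junctions at these exons in all 4 pore genes. In all 4 genes the flop exon came first in the transcript. The pairs of Gria1 and Gria3 are printed here 5′ to 3′ on the sense strand from the GENCODE M21 transcripts (build GRCm38), and capitals mark the bases at which flop and flip of the same gene differ.
Gria1 flop: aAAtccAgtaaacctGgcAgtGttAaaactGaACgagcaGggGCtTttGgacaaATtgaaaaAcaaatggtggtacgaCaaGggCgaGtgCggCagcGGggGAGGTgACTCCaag
Gria1 flip: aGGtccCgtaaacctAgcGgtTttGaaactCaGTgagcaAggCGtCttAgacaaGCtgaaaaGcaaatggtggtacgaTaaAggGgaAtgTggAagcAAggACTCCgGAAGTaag
Gria3 flop: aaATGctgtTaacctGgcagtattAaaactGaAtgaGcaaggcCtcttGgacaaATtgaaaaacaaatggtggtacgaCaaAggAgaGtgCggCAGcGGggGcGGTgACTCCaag
Gria3 flip: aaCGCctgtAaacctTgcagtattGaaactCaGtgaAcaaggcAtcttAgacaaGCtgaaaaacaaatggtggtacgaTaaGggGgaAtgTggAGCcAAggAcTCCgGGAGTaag
The Gria1 exons lie on the + strand at chr11:57309769-57309883 (flop) and chr11:57310608-57310722 (flip), and those of Gria3 on the + strand at chrX:41654810-41654924 and chrX:41669501-41669615. Flop and flip differ at 36 of 115 bases in Gria1, at 36 in Gria2, at 32 in Gria3 and at 31 in Gria4. Flop and flip of 1 gene share 68.7% to 73% of their bases, whereas the same exon is more alike between genes, with 87.8% to 94.8% identical bases between any 2 flop exons and 87.8% to 92.2% between any 2 flip exons.

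The libraries held between 10640232 and 21719869 counts, of which the 10 genes took 15165 to 36835, and no member fell below 295 counts in any library. Values per library are CPM, counts scaled to a common library total with TMM scaling over all 16 libraries. Mitochondrial rRNAs took 17.6% to 52.3% of the counts, and every SYN library was above every TH library. The mean was 39.3 ± 4.24% in 5 months SYN and 19.2 ± 1.91% in TH (SD, n = 4 each). The TMM factors were apart as well, from 0.693 to 1.02 in SYN and from 1.55 to 1.63 in TH. Levels in CPM of SYN and TH therefore rest on a scaling that differed between the fractions. No marker of cortical excitatory neurons, interneurons, astrocytes, microglia or oligodendrocytes was at 0 in any group, and the list for cerebellar granule cells summed to 13.5 CPM or less. The list for striatal neurons summed to between 168 and 309 CPM, and that for hippocampal granule cells to between 37.0 and 78.8 CPM. Libraries that stood apart were 5 months SYN replicate 4, with 4817 CPM of the nuclear RNA Malat1 against 947 to 1458 CPM in its 3 companions, 19 months SYN replicate 1, with 52.3% mitochondrial rRNA against 32.9% to 33.6% in the other 19 months libraries, and 3 weeks SYN replicate 1, in which the 10 genes summed to 1237 CPM against 1594 to 1710 CPM in the other 3 weeks libraries.

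Setting SYN against TH at 5 months asks which of these mRNAs take a larger part of the RNA of the SYN fraction than of the whole cortex. Of the 10 genes, 8 were higher in SYN at an adjusted p under 0.05 and 1, Gria4, was lower, against 24.5% higher and 25.6% lower among 17374 tested genes (edgeR quasi-likelihood F test, Benjamini-Hochberg adjustment over all genes). The median log2 fold change, SYN over TH, was 0.78 over the 10 genes and -0.05 over all genes. Such a median was not particular to the members. Among the marker lists it was 1.17 for microglia, 1.08 for astrocytes and 0.75 for oligodendrocyte precursors. It was 0.13 for excitatory neurons, 0.07 for interneurons and -3.16 for endothelial cells. All 6 auxiliary subunit genes rose, from 0.51 for Cacng3 to 1.34 for Cacng8 on the log2 scale, while the pore subunit genes split, with Gria1 higher, Gria3 slightly higher, Gria2 not called and Gria4 lower. Both are bulk fractions, so less RNA per cell or per ending and fewer of them cannot be told apart. Without 5 months SYN replicate 4 the counts were 7 higher and 1 lower, as they were without any other single library that ended the call of Gria3, named below. With 1 library left out, the counts over all genes ran from 3724 to 4199 higher and from 3888 to 5191 lower. With upper-quartile scaling, which moved the median over all genes to -0.19, the member counts were 7 higher and 2 lower. The counts over all genes then became 3367 higher and 5525 lower in place of 4248 and 4456.

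**Figure D1:**
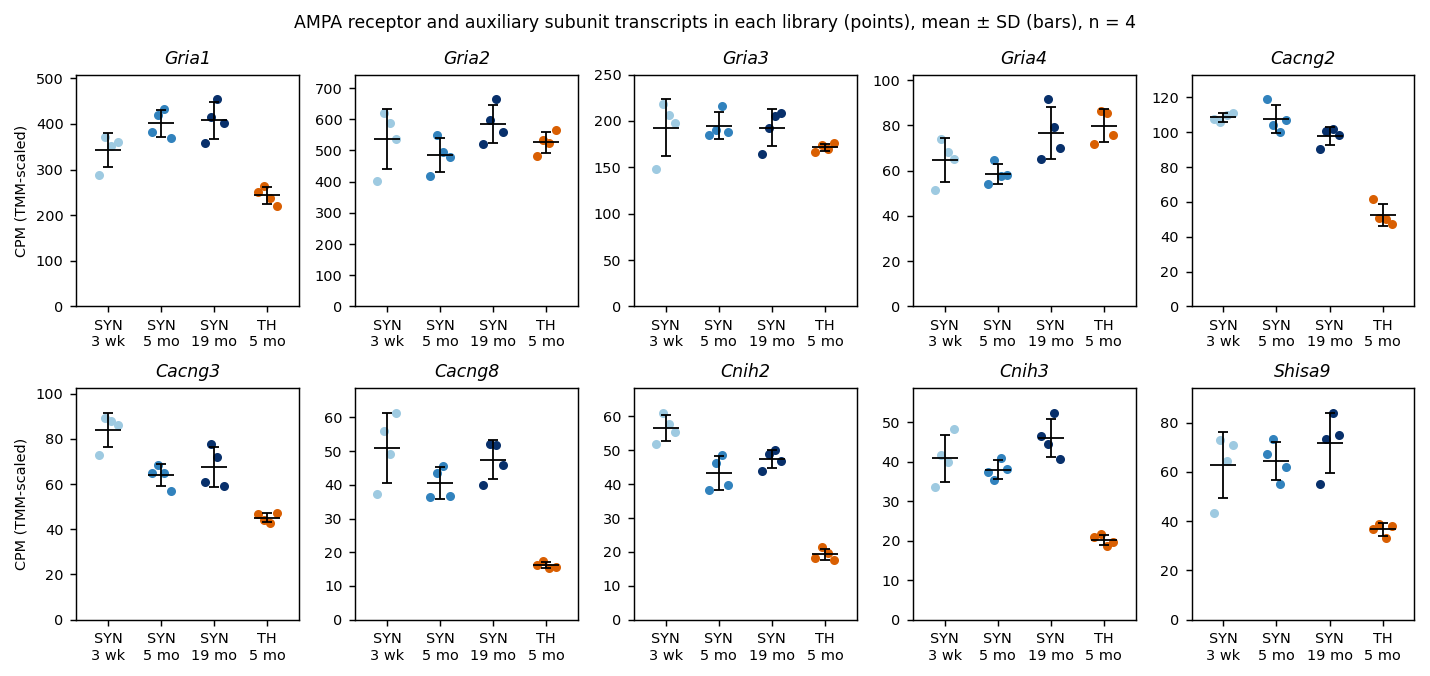
Level of each member in each library, in CPM after TMM scaling on a linear axis that starts at 0, with points for libraries and bars for mean ± SD (n = 4 per group). All 6 auxiliary genes and Gria1 lie higher in every SYN library than in every TH library, while Gria4 in 5 months SYN (54.2 to 64.8 CPM) lies below TH (71.7 to 86.5 CPM).

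Gria1 (chr11:57011387-57330244, + strand), which encodes the GluA1 subunit that is inserted at synapses during potentiation, had the largest rise among the pore genes. It was at 383, 420.1, 433 and 369 CPM in 5 months SYN, against 250.3, 265, 239 and 221 CPM in TH. Every SYN library was above every TH library, as for 22.2% of tested genes in this direction. The difference was 0.73 ± 0.08 on the log2 scale (SE), a fold of 1.66 (edgeR adjusted p = 3.27e-06).

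Gria2 (chr3:80681450-80802835, - strand) encodes GluA2, the subunit that keeps the pore tight to calcium. It was at 417, 550.2, 495 and 480.2 CPM in 5 months SYN, against 483, 535, 523 and 565 CPM in TH. The groups overlapped, and the log2 fold change of -0.11 ± 0.09 was not past the threshold (edgeR adjusted p = 0.333). With upper-quartile scaling Gria2 was called lower, at -0.25 (edgeR adjusted p = 0.0254), and over its 17 alternatives the adjusted p ran from 0.0254 to 0.667.

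Gria3 (chrX:41400854-41678601, + strand), the gene of GluA3, a subunit found mainly together with GluA2 in cortical neurons, was at 185, 190.4, 216 and 188 CPM in 5 months SYN, against 167, 174, 169 and 176 CPM in TH. The groups did not overlap, but by a narrow gap, and replicate 3 alone was clear of the others. On the log2 scale the difference was 0.20 ± 0.07 (edgeR adjusted p = 0.0327). Only 6 of 17 alternatives kept this call, with adjusted p from 0.0282 to 0.538. Without SYN replicate 3 the log2 fold change was 0.14 (edgeR adjusted p = 0.124), and leaving out SYN replicate 4 or TH replicate 1, 2 or 3 also ended the call (edgeR adjusted p = 0.0509, 0.0779, 0.0527 and 0.0811).

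Gria4 (chr9:4417896-4796234, - strand) encodes GluA4, a fast subunit used by many interneurons. It was at 54.2, 64.8, 57.5 and 58.0 CPM in 5 months SYN, against 71.7, 86.5, 85.7 and 75.7 CPM in TH. It was the 1 member called lower, with every SYN library below every TH library (25.7% of tested genes in this direction). The log2 fold change was -0.44 ± 0.09 (edgeR adjusted p = 0.000852). Its adjusted p stayed under 0.05 in 17 of 17 alternatives, with log2 fold changes from -0.58 to -0.39. Beside it, 2 of 7 interneuron markers were higher in SYN and 2 lower, with summed levels of 289 to 361 CPM in SYN and 275 to 362 CPM in TH. The part of cell type in this difference was not tested.

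Among the TARPs, Cacng8 (chr7:3390683-3415648, + strand), whose protein γ-8 is the main TARP of hippocampal and other forebrain principal neurons, had the largest log2 fold change of all 10 genes. It was at 36.3, 43.6, 45.6 and 36.8 CPM in 5 months SYN, against 16.1, 17.5, 15.4 and 15.6 CPM in TH. The log2 fold change was 1.34 ± 0.11, a fold of 2.53 (edgeR adjusted p = 1.30e-07). The lowest SYN library was far above the highest TH library. Of its exonic bases, 3.88% also lie in a small RNA gene on the same strand, Gm23450.

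Cacng2 (chr15:77991748-78120028, - strand) encodes stargazin, the TARP that links AMPA receptors to PSD-95. It was at 119, 104, 100.3 and 107 CPM in 5 months SYN, against 61.5, 50.6, 49.97 and 47.5 CPM in TH. The fold was 2.07, with a log2 fold change of 1.05 ± 0.09 (edgeR adjusted p = 3.23e-07), and the groups stood far apart. An antisense gene, A730060N03Rik, shares 5.86% of its exonic bases, and whether counting used the strand is not given in the sources used here.

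Cacng3 (chr7:122670492-122769393, + strand), which encodes the cortical TARP γ-3, had the smallest rise of the 6 auxiliary genes. It was at 64.8, 68.6, 65.1 and 57.1 CPM in 5 months SYN, against 46.6, 44.0, 42.9 and 47.0 CPM in TH. No SYN library was as low as any TH library. This came to 0.51 ± 0.08 on the log2 scale (edgeR adjusted p = 0.000107).

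The cornichons, which bind AMPA receptors in the endoplasmic reticulum and at the surface and slow their closing, both rose. Cnih2 (chr19:5092871-5098418, - strand) was at 38.3, 46.2, 48.7 and 39.6 CPM in 5 months SYN, against 18.2, 21.6, 19.5 and 17.7 CPM in TH. Cnih3 (chr1:181352628-181460641, + strand) was at 37.4, 35.4, 41.1 and 38.2 CPM in SYN, against 21.1, 21.6, 18.7 and 19.7 CPM in TH. In neither gene did the groups overlap. The log2 fold changes were 1.17 ± 0.11 for Cnih2 (edgeR adjusted p = 5.84e-07) and 0.92 ± 0.10 for Cnih3 (edgeR adjusted p = 1.98e-06).

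Shisa9 (chr16:11984113-12270902, + strand), whose protein CKAMP44 speeds desensitization and slows recovery, was at 67.4, 73.2, 55.0 and 62.1 CPM in 5 months SYN, against 36.6, 38.7, 33.1 and 37.98 CPM in TH. All SYN libraries were above all TH libraries, and SYN replicate 3 was the lowest of them. The difference was 0.83 ± 0.10 on the log2 scale (edgeR adjusted p = 5.50e-06). Gria1 and all 6 auxiliary genes kept their calls in 17 of 17 alternatives, and Gria4 kept its own except where a log2 change of at least 0.5 was also asked for.

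**Figure D2:**
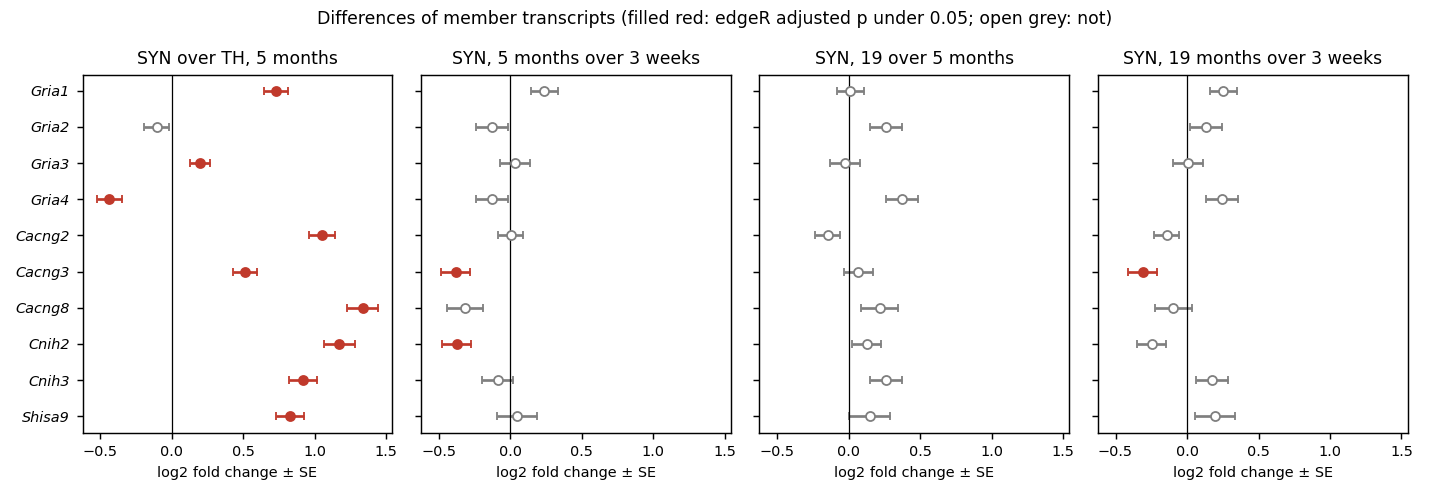
Log2 fold change ± SE of each member in the 4 comparisons (edgeR; filled red, adjusted p under 0.05; open grey, not). Calls crowd the comparison of SYN with TH (9 of 10), while Cacng3 and Cnih2 alone are called at 5 months over 3 weeks, Cacng3 alone at 19 months over 3 weeks, and no member at 19 over 5 months. Over all tested genes, the shares called in either direction were 50.1%, 24.6%, 19.4% and 0.3% in these comparisons, in the order named.

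Levels per kilobase of gene model (CPM/kb) allow genes to be ranked within a fraction. In 5 months SYN, Gria1 stood first at 66.4 ± 5.04 CPM/kb (SD, n = 4), followed by Cnih2 at 34.9 ± 4.07 CPM/kb and Gria2 at 31.2 ± 3.52 CPM/kb. Cnih2 and Gria2 overlapped. Cacng3, Gria3, Cacng2 and Cacng8 came next, from 23.0 to 17.3 CPM/kb, each overlapping its neighbour in this order. Cnih3 and Shisa9, at 13.8 and 12.6 CPM/kb, also overlapped, and Gria4 was last at 9.30 ± 0.70 CPM/kb. In TH the order was Gria1 at 40.3 ± 3.09 CPM/kb, Gria2 at 33.9 ± 2.2 CPM/kb, then Gria3, Cacng3, Cnih2, Gria4, Cacng2, Cnih3, Shisa9 and, last, Cacng8 at 6.89 ± 0.41 CPM/kb. Cnih2 overlapped Gria3 and Cacng3 in TH, and Gria4 was last in SYN but above 4 auxiliary genes in TH. The file gives Cnih2 a model of 1237 bases, where GENCODE M21 has 1369 exonic bases, and the longer one would lower its level per kilobase in both fractions. The Gria2 gene model, at 15548 bases, is the longest of the 10, and a level per kilobase depends on the model used.

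The share of each pore gene in the 4 together (CPM/kb) does not depend on library scaling, but it does depend on the lengths of the gene models. Before division by length, Gria2 was above Gria1 on average, at 486 against 401 CPM in 5 months SYN and 526 against 244 CPM in TH. Gria1 made up 53.9, 51.7, 53.3 and 50.7% in 5 months SYN, against 41.1, 39.98, 38.03 and 35.5% in TH. Gria2 made up 22.8, 26.3, 23.7 and 25.7% in SYN, against 30.8, 31.4, 32.4 and 35.4% in TH. Gria4 made up 7.32, 7.64, 6.78 and 7.66% in SYN, against 11.3, 12.5, 13.1 and 11.7% in TH. None of these 3 overlapped between fractions, with differences of 13.7, -7.87 and -4.80 percentage points, while Gria3 at 15.6 ± 0.87% in SYN and 16.7 ± 0.53% in TH (SD, n = 4 each) did overlap. The 4 shares of a library always make up the whole, so a rise in 1 lowers the others. They are therefore not separate results. In level, Gria2 was not called here (log2 fold change -0.11, edgeR adjusted p = 0.333). Each of the 3 shares without overlap gave p = 0.0286 in a two-sided exact permutation test, the smallest that 4 against 4 libraries allow. None of 40 such tests over shares and comparisons passed after Benjamini-Hochberg adjustment (smallest adjusted p = 0.0816, with 14 at an unadjusted p under 0.05). With this smallest p, a single share cannot pass adjustment over 40 tests, however large its difference. The lack of passes therefore decides nothing about any 1 share. The count columns of SYN and TH at 5 months carry matching numbers that may mark the same animals, which the labels do not state, and these p-values treat all libraries as independent.

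Within the 6 auxiliary genes, Cacng3 took 19.0 ± 0.78% in 5 months SYN and 25.9 ± 1.42% in TH, and Cacng8 took 14.2 ± 1.01% in SYN and 10.97 ± 0.32% in TH (SD, n = 4 each). These 2 shares did not overlap between fractions (exact permutation p = 0.0286 each, adjusted p = 0.0816). These shares are tied to each other as well, and that of Cacng3 was lower in SYN although its level was higher. The shares of Cacng2, Cnih2, Cnih3 and Shisa9 overlapped.

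**Figure D3:**
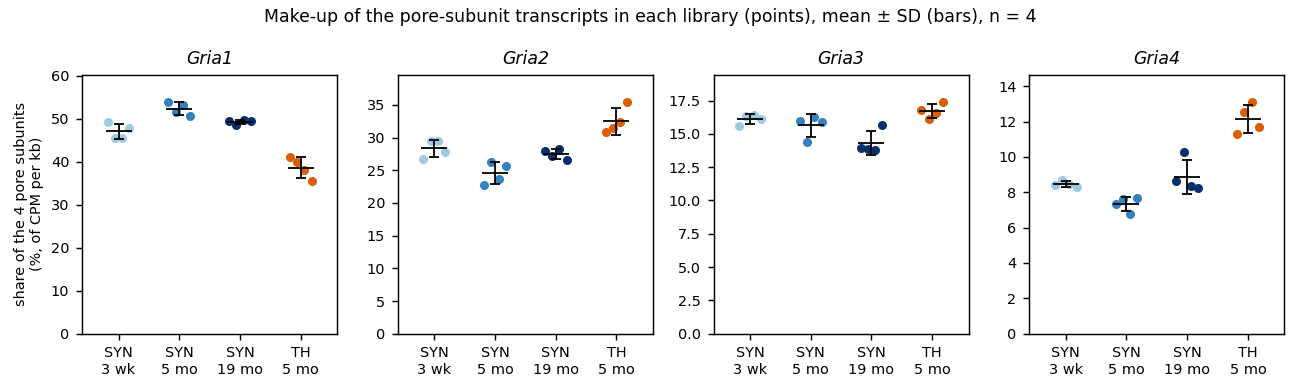
Share of each pore gene in the summed CPM per kb of Gria1 to Gria4, in percent on axes that start at 0, with points for libraries and bars for mean ± SD (n = 4 per group). Gria1 is at 50.7% to 53.9% in 5 months SYN and 35.5% to 41.1% in TH, and Gria4 is at 6.78% to 7.66% in 5 months SYN and 11.3% to 13.1% in TH.

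Markers of cell types moved with this comparison too. Of the marker lists, 3 of 6 genes for excitatory neurons, 6 of 6 for astrocytes, 6 of 7 for oligodendrocyte precursors and 5 of 5 for microglia were higher in SYN, and all 4 endothelial genes and all 5 nuclear RNAs were lower. For striatal neurons 5 of 6 genes were higher and 1 lower, and for hippocampal granule cells 2 of 4 were higher and 0 lower. Of the myelin genes 4 of 6 were higher and 0 lower, with sums of 1924 to 2381 CPM in SYN, against 1203 to 1330 CPM in TH. The excitatory list summed to between 921 and 1101 CPM in SYN, against 610 to 843 CPM in TH. Its other 3 genes were not called, and its median log2 fold change was 0.13, so the sum overstates the list. The astrocyte list summed to between 6117 and 7087 CPM in SYN, against 2711 to 3265 CPM in TH. Oligodendrocyte precursors and some astrocytes express AMPA receptor genes, and the part of these cells in the differences was not tested.

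The comparison of 5 months with 3 weeks in SYN sets adult endings against those of a cortex that is still maturing, and fewer members passed the test here. Cacng3 and Cnih2 were lower at 5 months and no member was higher, against 11.3% lower and 13.3% higher among 15344 tested genes. The median log2 fold change was -0.11 over the 10 genes and 0.00 over all genes. At an unadjusted p under 0.05 there were 3 lower and 1 higher, beside 5514 of the 15344 genes in either direction, and DESeq2's Wald test called 2 lower and 1 higher.

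Cacng3 was at 64.8, 68.6, 65.1 and 57.1 CPM at 5 months, against 72.8, 89.4, 87.8 and 85.9 CPM at 3 weeks. Every 5 months library was below every 3 weeks library, as for 12.1% of tested genes in this direction. On the log2 scale the difference was -0.38 ± 0.10 (edgeR adjusted p = 0.00672). Cnih2 was at 38.3, 46.2, 48.7 and 39.6 CPM at 5 months, against 51.9, 61.1, 57.8 and 55.5 CPM at 3 weeks, again with no overlap. Its log2 fold change was -0.37 ± 0.10 (edgeR adjusted p = 0.00717). Both had an adjusted p under 0.05 in 18 of 18 alternatives, and neither reached a log2 change of 0.5.

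Cacng8 and Gria1 came close to the threshold in opposite directions. Cacng8 was at 36.3, 43.6, 45.6 and 36.8 CPM at 5 months, against 37.3, 55.8, 49.2 and 61.4 CPM at 3 weeks, where replicate 1 was at the level of the 5 months libraries. The log2 fold change was -0.31 ± 0.13 (edgeR adjusted p = 0.0729), called in 3 of 18 alternatives, whose adjusted p ran from 0.004 to 0.257. The calls came without 3 weeks replicate 1 (-0.43, edgeR adjusted p = 0.004), without the filter (-0.33, edgeR adjusted p = 0.0279) and with the replicate block (-0.30, edgeR adjusted p = 0.0281). No label links replicate numbers between ages, so the block joins these libraries by number alone. Gria1 was at 383, 420.1, 433 and 369 CPM at 5 months, against 288, 372, 352 and 360.4 CPM at 3 weeks, with 1 library of each age in overlap. Its log2 fold change was 0.24 ± 0.09 (edgeR adjusted p = 0.0645), called in 5 of 18 alternatives, whose adjusted p ran from 0.0227 to 0.188. Without 3 weeks replicate 2 it was called, at 0.28 (edgeR adjusted p = 0.0481).

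The other 6 members overlapped between these ages and were not called. At 3 weeks Gria2 was at 402, 619, 587 and 537 CPM, Gria3 at 148, 218, 206 and 198 CPM, and Gria4 at 51.4, 74.2, 68.3 and 65.3 CPM, with replicate 1 the lowest each time. Shisa9 at 43.4, 72.8, 64.4 and 71.0 CPM showed the same low replicate 1, while Cacng2, at 107, 106, 110.0 and 111 CPM, did not. Cnih3 was at 33.5, 41.8, 40.0 and 48.2 CPM. Among these 6 the log2 fold changes, 5 months over 3 weeks, lay between -0.13 and 0.05 (edgeR adjusted p 0.440 to 0.987).

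Of the 4 pore genes together, Gria1 made up 52.4 ± 1.43% at 5 months and 47.1 ± 1.82% at 3 weeks (SD, n = 4 each), Gria2 24.6 ± 1.65% at 5 months and 28.4 ± 1.35% at 3 weeks, and Gria4 7.35 ± 0.41% at 5 months and 8.47 ± 0.16% at 3 weeks. In none of the 3 did the ages overlap (exact permutation p = 0.0286 each, the smallest possible, adjusted p = 0.0816). The shares are tied to each other, and the levels of Gria1, Gria2 and Gria4 were not called between these ages. Replicate 1 at 3 weeks, low in level, had the highest Gria1 share of its age, 49.3%, still below the lowest at 5 months, 50.7%. Beside these, 6 of 7 oligodendrocyte precursor markers and 6 of 6 myelin genes were lower at 5 months, the first list summing to 136 to 153 CPM at 5 months and 343 to 394 CPM at 3 weeks. The excitatory list had 2 of 6 genes lower and summed to 921 to 1101 CPM at 5 months and 1186 to 1605 CPM at 3 weeks. Of the nuclear RNAs, 3 of 5 were higher, with sums of 1523 to 6609 CPM at 5 months and 812 to 1088 CPM at 3 weeks. The part of these lists in the member differences was not tested.

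Between 19 and 5 months no member was called, against 0.13% higher, 0.169% lower and 0.3% in either direction among 15344 tested genes. At an unadjusted p under 0.05 there were 3 members, Gria2, Gria4 and Cnih3, all higher at 19 months, beside 2103 of the 15344 genes in either direction, and DESeq2's Wald test called 0. Gria4 was at 65.4, 91.5, 79.5 and 69.9 CPM at 19 months, against 54.2, 64.8, 57.5 and 58.0 CPM at 5 months. It was the member whose ages did not overlap (3.53% of tested genes in this direction and 4.53% in the other), by a gap of less than 1 CPM. The log2 fold change was 0.38 ± 0.11 (edgeR adjusted p = 0.120), called in 3 of 18 alternatives with adjusted p from 0.0275 to 0.357.

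Gria2 was at 522, 599, 664 and 558 CPM at 19 months, against 417, 550.2, 495 and 480.2 CPM at 5 months, with a log2 fold change of 0.26 ± 0.11 (edgeR adjusted p = 0.303). Cnih3 was at 46.5, 44.4, 52.5 and 40.9 CPM at 19 months, against 37.4, 35.4, 41.1 and 38.2 CPM at 5 months, with 0.26 ± 0.11 (edgeR adjusted p = 0.286). In both the ages overlapped in 1 pair of libraries. Gria1 overlapped as well, at 358, 416, 454 and 403 CPM at 19 months, with a log2 fold change of 0.01 ± 0.09 (edgeR adjusted p = 0.973). For the remaining 6 members the log2 fold changes, 19 over 5 months, lay between -0.15 and 0.22.

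The share of Gria1 in the pore genes was 49.4, 48.7, 49.7 and 49.5% at 19 months, below the 50.7% to 53.9% of 5 months. Gria2 made up 27.5 ± 0.72% at 19 months and 24.6 ± 1.65% at 5 months, and Gria4 8.87 ± 0.95% at 19 months and 7.35 ± 0.41% at 5 months (SD, n = 4 each). These 3 shares did not overlap between the ages, and neither did that of Cacng2 among the auxiliary genes, 13.5 ± 0.55% at 19 months and 16.2 ± 1.80% at 5 months. Each had an exact permutation p of 0.0286 and an adjusted p of 0.0816. Over the series of ages, the Gria1 share was 47.1% at 3 weeks, 52.4% at 5 months and 49.3% at 19 months, and the Gria2 share was 28.4% at 3 weeks, 24.6% at 5 months and 27.5% at 19 months. These shares are tied to each other, and no pore gene was called in level between any of these ages. The level of Gria1 hardly differed between 19 and 5 months (log2 fold change 0.01, edgeR adjusted p = 0.973), so its lower share at 19 months was not a fall in level.

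Between 19 months and 3 weeks, Cacng3 was the 1 member called, lower at 19 months, against 9.44% lower and 10% higher among 15344 tested genes. It was at 60.9, 77.8, 71.8 and 59.2 CPM at 19 months, against 72.8, 89.4, 87.8 and 85.9 CPM at 3 weeks, and 1 pair of libraries overlapped. The log2 fold change was -0.31 ± 0.10 (edgeR adjusted p = 0.0304), called in 12 of 18 alternatives with adjusted p from 0.00684 to 0.123. It was lost on leaving out 3 weeks replicate 2, 3 or 4 (edgeR adjusted p = 0.087, 0.0916 and 0.0623) or 19 months replicate 1 or 4 (edgeR adjusted p = 0.0984 and 0.123). Cnih2, at 43.8, 49.1, 50.1 and 46.8 CPM at 19 months, lay below all 3 weeks libraries (11.8% of tested genes in this direction) with a log2 fold change of -0.25 ± 0.10 that was not past the threshold (edgeR adjusted p = 0.0837).

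No member was called higher between these ages, though 2 had an unadjusted p under 0.05, beside 4813 of the 15344 genes in either direction, and DESeq2's Wald test called 1. The 2 were Gria1, at 0.25 ± 0.09 on the log2 scale (edgeR adjusted p = 0.0606, called in 6 of 18 alternatives, 0.0193 to 0.221), and Gria4, at 0.25 ± 0.11 (edgeR adjusted p = 0.130). Leaving out 3 weeks replicate 2 or 19 months replicate 1 gave Gria1 an edgeR adjusted p of 0.0398 or 0.0211. Cacng2, at 90.4, 101, 102 and 98.4 CPM at 19 months, also lay below all 3 weeks libraries, with a log2 fold change of -0.14 ± 0.09 (edgeR adjusted p = 0.262). At 19 months Cacng8 was at 39.8, 52.2, 51.8 and 46.0 CPM, Shisa9 at 55.1, 73.3, 84.0 and 75.1 CPM, and Gria3 at 165, 193, 206 and 208 CPM, with replicate 1 the lowest of each. Beside these, 5 of 6 excitatory markers and 5 of 7 oligodendrocyte precursor markers were lower at 19 months, and their part was not tested.

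The authors' deposited LeafCutter tables group introns that share a splice site into clusters and give the usage of each intron by age, as a group estimate with no value per library. They held 11 clusters in 5 of the 10 genes, Gria1 to Gria4 and Shisa9, of which 9 were tested in each table. None reached an adjusted p under 0.05 in the authors' deposited tables, against 6.61% of 4250 clusters at 5 months with 3 weeks, 0.768% of 4037 at 19 with 5 months and 4.81% of 4176 at 19 months with 3 weeks. At an unadjusted p under 0.05 there were 4, 0 and 3 of the 9 tested clusters in the authors' deposited tables. The share of all clusters at this unadjusted threshold was not counted, so these counts have nothing to be set against.

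The flop exons printed above are entered from the exon before them and left to a shared exon after them, so each gene has a junction into and a junction out of the exon. In the authors' deposited table of 5 months with 3 weeks, the flop exon of Gria1 took 76.0% of junctions into the pair at 5 months and 61.2% at 3 weeks, 14.8 percentage points more (LeafCutter p = 0.0133, adjusted p = 0.107). In the authors' deposited table of 19 months with 3 weeks it took 73.9% at 19 months and 61.3% at 3 weeks (LeafCutter p = 0.00847, adjusted p = 0.101). Out of the pair, the flop junction took 58.6% at 5 months and 63.0% at 3 weeks in the authors' deposited table (LeafCutter adjusted p = 0.775). The differences into and out of the pair had opposite signs, and neither was past the threshold.

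Flip use was higher in Gria3 than in the other pore genes in each of these group estimates, with no test between genes. Into its pair, flop took 40.2% at 5 months and 23.5% at 3 weeks in the authors' deposited table (LeafCutter p = 0.0243, adjusted p = 0.147), and 35.3% at 19 months and 23.3% at 3 weeks in the authors' deposited table of those ages (LeafCutter p = 0.0303, adjusted p = 0.182). Out of the pair, flop took 11.6% at 5 months and 14.4% at 3 weeks in the authors' deposited table (LeafCutter adjusted p = 0.798). None of these differences passed the threshold, and entry was not tested against exit. Neither intron into the Gria3 pair is annotated in GENCODE M21, while both introns out of it are, so the entry values rest on unannotated junctions.

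For Gria2, where entry and exit junctions share 1 cluster, flop made up 77.2% of flop and flip entries at 5 months and 68.3% at 3 weeks, and 51.0% of exits at 5 months and 49.1% at 3 weeks, computed from the usages in the authors' deposited table (LeafCutter p = 0.254 and adjusted p = 0.478 for the cluster). For Gria4, where exits alone were tested, the authors' deposited tables gave flop 53.3% at 5 months and 68.9% at 3 weeks in one, and 73.2% at 19 months and 54.5% at 5 months in another. Neither of these authors' deposited tables called the change (LeafCutter adjusted p = 0.497 for 5 months with 3 weeks and 0.561 for 19 with 5 months).

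**Figure D4:**
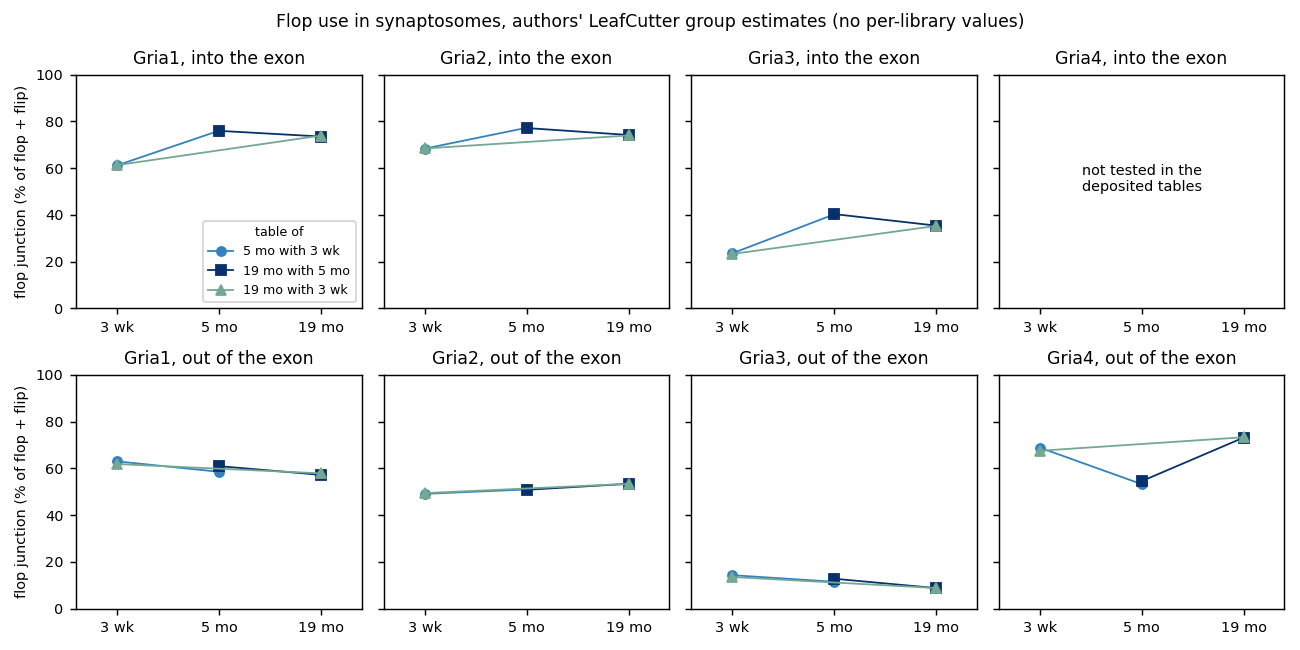
Flop use in SYN at the 3 ages, as the percent of flop plus flip junctions into (top) and out of (bottom) the exon pair, from the authors' deposited LeafCutter group estimates, with a line for each table of 2 ages. Flop entry in Gria1 is 76.0% at 5 months and 61.2% at 3 weeks, and that in Gria3 is 40.2% at 5 months and 23.5% at 3 weeks, while no cluster is past an adjusted p of 0.05. The entry junctions of Gria3 are not annotated in GENCODE M21.

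Outside the flip and flop exons, a second Gria2 cluster (chr3:80688715-80689216, - strand) held, beside an annotated intron of 388 bases, one of 502 bases that is not annotated and whose 5′ end lies inside the exon before it. In the authors' deposited tables it took 5.50% at 5 months and 12.5% at 3 weeks (LeafCutter p = 0.0196, adjusted p = 0.131), and 6.93% at 19 months and 12.3% at 3 weeks (LeafCutter p = 0.0167, adjusted p = 0.135). In Shisa9 the first cluster joins the same donor either to a coding exon or to an exon of 57 bases known from a processed transcript, and the junction to the exon of 57 bases took 18.2% at 5 months and 10.5% at 3 weeks in the authors' deposited table (LeafCutter p = 0.0484, adjusted p = 0.205). The second surrounds a cassette exon of 48 bases at chr16:12252785-12252832 that is part of one coding transcript, and its skipping junction took 29.3% at 5 months and 22.2% at 3 weeks in the authors' deposited table (LeafCutter p = 0.0675, adjusted p = 0.244).

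The authors' deposited DIEGO tables list single junctions of all 10 genes, 105 at 5 months with 3 weeks, 103 at 19 with 5 months and 109 at 19 months with 3 weeks. None reached a q under 0.05 in the authors' deposited tables, against 1.48%, 0% and 0.69% of all junctions in the 3 tables. A DIEGO p under 1 was given for 0, 1 and 1 of the member junctions, so the lack of calls says little about the others. The 1 junction with a p under 0.05 lay in Gria1 at chr11:57330035-57330095, within the last exon, with q = 0.0839 in the authors' deposited table of 19 with 5 months and q = 0.0674 in that of 19 months with 3 weeks.

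The genes whose mean levels over the 4 groups followed Gria1, Gria3 and Gria4 most closely were found among 5378 genes of at least 20 CPM, by the root-mean-square distance of centred log2 CPM. Nearest to Gria1 were Arhgap5, Cyhr1 and Thsd7a (distances 0.0159, 0.0165 and 0.0192 on the log2 scale). Nearest to Gria3 were Kdm5c, Tsr2 and Sdha (0.0157, 0.0193 and 0.0205), and nearest to Gria4 were Api5, Azi2 and Ypel5 (0.0507, 0.0612 and 0.0613). Among the members themselves the closest pair was Cacng8 and Cnih2, at 0.091, and the closest member to Gria1 was Shisa9, at 0.103. With 4 group means these distances are a description.

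A list of 42 other genes of AMPA receptor biology, all of which were tested, gave the surroundings of the members. At 5 months, 26 were higher in SYN than in TH and 7 lower, with a median log2 fold change of 0.64, against 24.5% higher and 25.6% lower over all genes. Of 10 further auxiliary subunits, 7 rose and 1 fell. Gsg1l, an auxiliary subunit that slows recovery from desensitization, averaged 127 ± 14.5 CPM in the SYN libraries, against 30.9 ± 5.21 CPM in TH, with a log2 fold change of 2.05 ± 0.12 (edgeR adjusted p = 1.17e-08). The TARP gene Cacng4 (log2 fold change 1.49 ± 0.12), Shisa6 (1.37 ± 0.10) and Shisa7 (0.99 ± 0.09) rose as well.

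Of 7 genes that assemble AMPA receptors in the endoplasmic reticulum or limit it, 5 rose, among them Olfm1 (0.91 ± 0.08 on the log2 scale) and Frrs1l (0.79 ± 0.07), while Sacm1l, named here because it was the 1 that fell, was lower. All 6 genes of proteins that hold receptors from the synaptic cleft rose, led by the neuronal pentraxin receptor Nptxr, averaging 836 ± 56.5 CPM in the SYN libraries against 288 ± 26.6 CPM in TH (1.55 ± 0.08 on the log2 scale, edgeR adjusted p = 2.99e-09), and by Nptx1 (1.40 ± 0.09). Of 16 trafficking genes 7 rose and 4 fell. Arc, an activity-induced dendritic mRNA whose protein drives AMPA receptor endocytosis, rose by 1.83 ± 0.10 on the log2 scale (edgeR adjusted p = 2.48e-09), with Epb41l1 (1.39 ± 0.08), Wwc1 (1.36 ± 0.08) and Myo6 (1.11 ± 0.07). Of the genes in the RNA-editing list, Adarb1, whose protein edits the Gria2 pore site, was higher in SYN (0.89 ± 0.08), Adarb2 was lower (-0.81 ± 0.14), and Adar was not called.

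**Figure D5:**
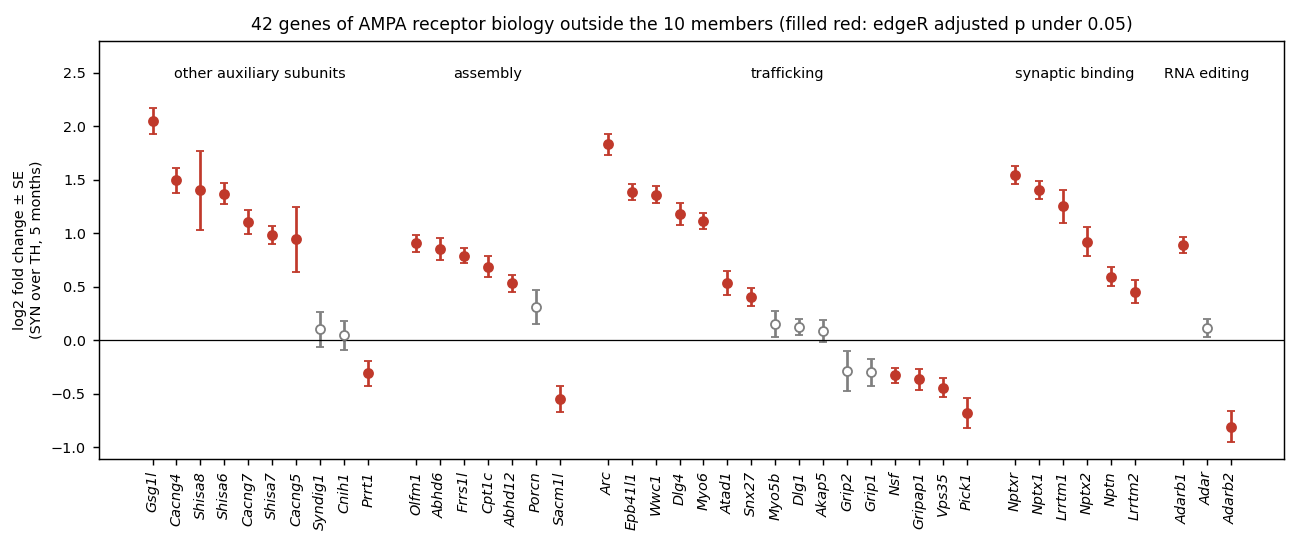
Log2 fold change ± SE, SYN over TH at 5 months, of the 42 other genes of AMPA receptor biology in 5 lists (edgeR; filled red, adjusted p under 0.05; open grey, not). The 7 genes called lower reach -0.81 (Adarb2), and the 26 called higher reach 2.05 (Gsg1l).

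At 5 months against 3 weeks in SYN, 10 of the 42 were higher and 7 lower, where 13.3% of the 15344 tested genes were higher and 11.3% lower. Without 3 weeks replicate 3 the count higher was 6, and without 3 weeks replicate 1 the count lower was 12. With a log2 change of at least 0.5 also asked for, 3 were higher and 3 lower. Adarb1 averaged 241 ± 20.6 CPM at 5 months, against 179.8 ± 12.1 CPM at 3 weeks, a log2 fold change of 0.44 ± 0.09 (edgeR adjusted p = 0.000478), and Adar rose by 0.35 ± 0.09. Frrs1l rose by 0.34 ± 0.09 and Nptx1 by 0.43 ± 0.12. Among the genes that fell were Vps35 of the retromer (-0.53 ± 0.09), the recycling ATPase Nsf (-0.38 ± 0.08), Nptx2 (-0.54 ± 0.13) and Prrt1 (-0.44 ± 0.12). The auxiliary subunit genes Cacng5 (0.66 ± 0.20, edgeR adjusted p = 0.0146), Cacng7 (0.35 ± 0.10, edgeR adjusted p = 0.0113) and Gsg1l (0.39 ± 0.12, edgeR adjusted p = 0.0166) were higher, and each lost its call without 1 library. Without 5 months replicate 2 Cacng5 had an edgeR adjusted p of 0.0971, without 3 weeks replicate 3 Cacng7 had 0.0517, and without 5 months replicate 3 Gsg1l had 0.069.

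Between 19 and 5 months, 1 of the 42 was called, Akap5, the gene of the scaffold AKAP79/150 that anchors kinases and a phosphatase at AMPA receptors. It averaged 111 ± 9.97 CPM at 19 months, against 149 ± 11.8 CPM at 5 months (log2 fold change -0.44 ± 0.09, edgeR adjusted p = 0.0350), and this call held in 9 of 18 alternatives (0.00197 to 0.197). Leaving out any library of these ages other than 5 months replicate 2 ended it, with an edgeR adjusted p of 0.0546 to 0.140. Between 19 months and 3 weeks, 9 were higher and 6 lower, where 10% of the 15344 tested genes were higher and 9.44% lower. Without 19 months replicate 3 the count higher was 5, as it was with a log2 change of at least 0.5 also asked for. Cacng5 averaged 23.8 ± 3.25 CPM at 19 months, against 8.93 ± 0.63 CPM at 3 weeks (1.42 ± 0.19, edgeR adjusted p = 8.88e-06), Shisa8 averaged 8.11 ± 1.39 CPM at 19 months, against 3.16 ± 1.11 CPM at 3 weeks (1.36 ± 0.27), and Adarb1 rose by 0.53 ± 0.09. Akap5 (-0.63 ± 0.09), Nsf (-0.57 ± 0.08), Vps35 (-0.55 ± 0.09) and Cacng4 (-0.53 ± 0.11) fell.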

How the data were processed

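RNA was sequenced from 16 libraries in 4 groups of 4, grouped by the labels. The authors deposited raw counts per gene, made with featureCounts on GRCm38.p6 after trimming with cutadapt 1.18 and Trimmomatic 0.38, per the submitters' processing notes. No source used here names the aligner, the annotation behind the counts or whether counting used the strand. The authors also deposited LeafCutter tables, which per the file headers hold p-values, a log likelihood ratio score, an effect size that was taken as natural log and not used, and usage as a fraction of each intron cluster per age, and DIEGO tables with p-values, q-values and a score of abundance change. Fractions were turned into percent.

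The members and gene lists were chosen with earlier results of these data known. Counts were scaled with TMM, filtered with filterByExpr and tested with edgeR 4.0.16 in R 4.3.3 (quasi-likelihood F test, Benjamini-Hochberg adjustment over all genes, threshold 0.05, prior count of 2 for log2 CPM). The fit of SYN with TH used the 8 libraries at 5 months, and the fits of age used the 12 SYN libraries. CPM divided by the gene model length in kilobases gave levels per kilobase, and shares were compared with a two-sided exact permutation test. Genes named from the pathway lists were up to 4 of each list with the smallest p in each comparison. Alternatives were other scalings and filters, DESeq2 1.42.0, fits on other libraries, a replicate block and leaving out each library, and those for the pathway genes were added after seeing the data. Between ages the block rests on replicate numbers that no label links, so calls gained with it there carry little weight. The statistics were checked on simulated counts. Replicates are labelled as biological, and depth limits low genes only in counting error, since each member had 295 counts or more in each library. Exons were read from the GENCODE M21 annotation of GRCm38. The genes nearest in pattern to Gria2 are not reported here.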

Additional observations from a re-analysis of the deposited data

Results flagged for a closer look

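Of 80 groups of 4 libraries checked for a library far from the others, 3 stood out by Dixon's test, and chance gives about 1 in 20. Gria3 was at 216 CPM in 5 months SYN replicate 3, against 185 to 190.4 CPM in the other libraries of that group, and without it the difference from TH was no longer called. The share of Cnih3 in the auxiliary genes was 11.4% in 3 weeks SYN replicate 4. The share of Gria3 in the pore genes was 15.7% in 19 months SYN replicate 4.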

How the results depend on the processing

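In SYN against TH, upper-quartile scaling gave 2 members lower (Gria2 and Gria4) and a required log2 change of 0.5 gave 0. At 5 months against 3 weeks, 1 member, Gria1, was higher with upper-quartile scaling, with the replicate block, with DESeq2, and without 5 months replicate 4 and 19 months replicate 1 together; leaving out 1 library gave 0 to 1. The change of 0.5 left 0 members lower, and 1302 genes higher and 1067 lower. At 19 against 5 months, 1 member, Gria4, was higher without the filter, with the block and in the 8 libraries alone. Over all genes that comparison gave 142 higher and 150 lower without the filter, 124 and 140 with the block, 114 and 198 with DESeq2, 132 and 188 in the 8 libraries, 2 and 3 without both libraries, 14 lower with all 16 libraries or with the change of 0.5, and 0 to 60 higher and 0 to 64 lower with 1 library left out. At 19 months against 3 weeks, 1 member was higher with upper-quartile scaling, DESeq2 or both libraries out, and 2 with the block; 0 were lower without both libraries or with the change of 0.5, which left 1016 genes higher and 788 lower. With 1 library left out, 0 to 1 members were higher and 0 to 1 lower. The cause of these shifts was not tested.

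Reversed fold changes were 21, none of a called member, with log2 sizes of 0.096 or less. At 5 months against 3 weeks Cacng2 was -0.013 without the filter and -0.014 with all 16 libraries. Gria3 was 0.034 at 19 against 5 months without both libraries and -0.0062 at 19 months against 3 weeks without the filter. With counts not divided by length the Gria3 share differed by 0.346 points in SYN against TH and by 0.211 at 5 months against 3 weeks. Leaving out 1 library moved, at 5 months against 3 weeks, Cacng2 between -0.043 and 0.031, Cnih3 between -0.17 and 0.0014, Gria3 between -0.068 and 0.098 and Shisa9 between -0.086 and 0.13. At 19 against 5 months it moved Cacng3 between -0.0087 and 0.13, Gria1 between -0.042 and 0.073 and Gria3 between -0.067 and 0.044. At 19 months against 3 weeks it moved Cacng8 between -0.21 and 0.011 and Gria3 between -0.090 and 0.080.

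The count columns of SYN and TH at 5 months carry matching numbers, which may mark the same animals, though the labels do not state it. In a check for pairing, replicates 1 and 4 had the same number as their best match in the other fraction, while replicates 2 and 3 had another number. The fit had no pairing. The replicate block there gave 8 members higher and 1 lower.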
